A study of Mus musculus with 6 samples.

Results

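Interferon-stimulated genes are the genes that cells switch on when interferon binds its receptor. A set of 36 such genes was taken by symbol from the 30236 genes measured in mouse liver tumors, and all 36 were found. All 36 also lay among the 22677 genes tested, those whose mean over the libraries was above the lowest 25%. They comprise 10 antiviral effectors, 5 genes of the 2′-5′ oligoadenylate synthetase (OAS) family, 3 RNA sensors, 4 signal transducers and regulators, 5 ubiquitin and ADP-ribose enzymes, 5 GTPases and 4 other induced genes. They bear on whether tumors that lack TOP1MT, the topoisomerase of the mitochondria, carry an interferon response.

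The libraries came from tumors of WT mice (n = 3) and of Top1mt -/- mice (Top1mt-KO, n = 3), all C57BL/6. The mice were male littermates of a line kept by heterozygous breeding, and the knockout is not limited to hepatocytes. Both genotypes received diethylnitrosamine, a liver carcinogen, on day 14 after birth and carbon tetrachloride, a liver toxin, for 14 weeks from week 8, and tumors were collected at week 22. No tumor without these agents and no normal liver is among the libraries, so every level below is that of a chemically injured tumor. The tissue is bulk, so that fewer cells of a type and less RNA per cell cannot be told apart.

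Type I interferons bind the receptor IFNAR, whose kinases JAK1 and TYK2 phosphorylate transcription factors, STAT2 among them. With IRF9, STAT2 is part of the complex ISGF3, which binds the interferon-stimulated response element (ISRE) in the promoters of its targets. Interferon gamma has a receptor of its own, acts largely through a different element, GAS, and induces the GBP and IRG GTPases most strongly. DNA in the cytosol, mitochondrial DNA included, is sensed by cGAS, which signals through STING, TBK1 and IRF3 to the interferon beta gene. Of the RNA sensors, RIG-I and MDA5 signal through MAVS, a protein of the outer mitochondrial membrane. Many members encode parts of this circuit themselves, so that the response amplifies its own machinery.

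A property of the members that their choice did not use is the sequence in front of them. RefSeq promoters on GRCm38.p6, reaching from 250 bases before to 50 bases after a start site, were at hand for 27 of the 36 members, with 30 start sites. Zbp1, Mx1, Mx2, Oas2, Dhx58, Usp18, Parp9, Parp14 and Rtp4 had no entry. The ISRE core, GAAA followed by any 2 bases and a second GAAA, was searched on both strands with overlapping matches kept. It was present in the promoters of 15 of the 27 members (55.6%), against 3.99% of all 27025 genes with a promoter. The GAS core TTCNNNGAA, which reads the same on both strands, was present in 6 of the 27 (22.2%), against 9.55% of all genes. The following 6 stretches of 150 bases end at the last base before the start site and run 5′ to 3′ on the strand of the gene, with the bases of each ISRE match in capitals. Ifit1, Isg15 and Rsad2 are shown as antiviral effectors with a match, Gbp2 and Irgm1 as GTPases with a match and with the lowest KO means of their family relative to WT, and Dtx3l as a member without one whose groups did not overlap.
Ifit1, chr19:34640739-34640888, + strand: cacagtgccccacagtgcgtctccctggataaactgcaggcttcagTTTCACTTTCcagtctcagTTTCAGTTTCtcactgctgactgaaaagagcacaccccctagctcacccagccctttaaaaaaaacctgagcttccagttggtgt
Isg15, chr4:156200819-156200968, - strand: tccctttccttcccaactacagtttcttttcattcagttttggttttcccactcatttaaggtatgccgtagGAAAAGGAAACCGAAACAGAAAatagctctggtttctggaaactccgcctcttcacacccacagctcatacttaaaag
Rsad2, chr12:26456453-26456602, - strand: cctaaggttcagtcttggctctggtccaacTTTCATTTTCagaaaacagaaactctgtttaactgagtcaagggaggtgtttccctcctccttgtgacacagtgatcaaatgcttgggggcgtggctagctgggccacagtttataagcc
Gbp2, chr3:142620513-142620662, + strand: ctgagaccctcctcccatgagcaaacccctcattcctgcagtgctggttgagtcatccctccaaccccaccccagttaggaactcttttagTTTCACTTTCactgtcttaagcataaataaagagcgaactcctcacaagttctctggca
Irgm1, chr11:48871421-48871570, - strand: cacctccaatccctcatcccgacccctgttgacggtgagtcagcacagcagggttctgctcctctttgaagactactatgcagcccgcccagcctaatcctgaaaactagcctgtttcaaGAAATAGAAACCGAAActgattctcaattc
Dtx3l, chr16:35939028-35939177, - strand: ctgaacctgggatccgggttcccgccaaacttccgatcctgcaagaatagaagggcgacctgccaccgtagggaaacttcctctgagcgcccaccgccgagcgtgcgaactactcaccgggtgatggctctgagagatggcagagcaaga
Isg15 held 3 overlapping matches, Ifit1 and Irgm1 held 2 each, and Gbp2 and Rsad2 held 1. The matches of Gbp2 and Ifit1 began 59 and 104 bases before the start site, the second match of Ifit1 at 85. A match describes these letters only, and its absence from a window says nothing of the factor.

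Values are log2 expression as deposited, without read totals, which leaves the depth unknown. Top1mt itself ran from 5.99 to 8.01 in the libraries labelled WT and from 5.58 to 6.41 in those labelled KO (log2 difference -1.13, limma's adjusted p = 0.999). Its lowest WT value, that of replicate 2, is under those of 2 libraries labelled KO and goes against the label, so every direction below is that of the labels. KO replicate 1 also stood apart, with Gm42418 at 22.0 against 11.7 to 15.8 in the others. Counts are therefore also given without these 2 libraries. The hepatocyte markers Alb (20.26 to 21.12) and Hnf4a (13.02 to 13.54) were high in all 6 libraries, as the tissue label says.

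No member passed the test between the genotypes, in either direction. By limma with a mean-variance trend, 0 of the 36 had an adjusted p under 0.05, and 0 had an unadjusted p under 0.05. Over all genes tested these shares were 0.0% and 4.34% (1.79% higher and 2.56% lower in KO). The adjusted p was 0.999 for every member. The mean was higher in KO for 13 members and lower for 23, where all genes tested divided into 47.7% and 52.3%. The median log2 difference, KO minus WT, was -0.055 against -0.015 over all genes tested. The members divided 18 and 18 when each library was shifted to the same median, where the median of the members was -0.0010 and that of all genes 0.039. They divided 12 and 24 with quantile normalization, where their median was -0.083 and that of all genes 0.0031. Without WT replicate 2 and KO replicate 1 they divided 9 and 27, with medians of -0.16 and -0.032.

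On the deposited scale, whose transform is not named, the size of any rise was bounded for most members. If the transform draws low values toward their mean, the bounds do not hold for the expression behind it. The 95% interval of the log2 difference ended below 1, a 2-fold rise on that scale, for 34 of the 36 members (71.8% of all genes tested). The exceptions were Mx1 and Mx2, with upper bounds of 1.15 and 1.16. The lower bound was above -1 for 32 (66.7% of all genes), all but Gbp2, Oas3, Oasl1 and Oasl2. Both bounds lay within 1 for 30 members (49.7% of all genes). Each interval stands for its own gene, with no allowance for 36 of them. With a library left out the number with an upper bound below 1 ran from 30 (without WT replicate 3) to 36 (without WT replicate 2). It was 33 without WT replicate 2 and KO replicate 1 together. In size, 14 members differed by less than 0.10 and 25 by less than 0.25, and Gbp2 alone differed by 0.50 or more.

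**Figure D1:**
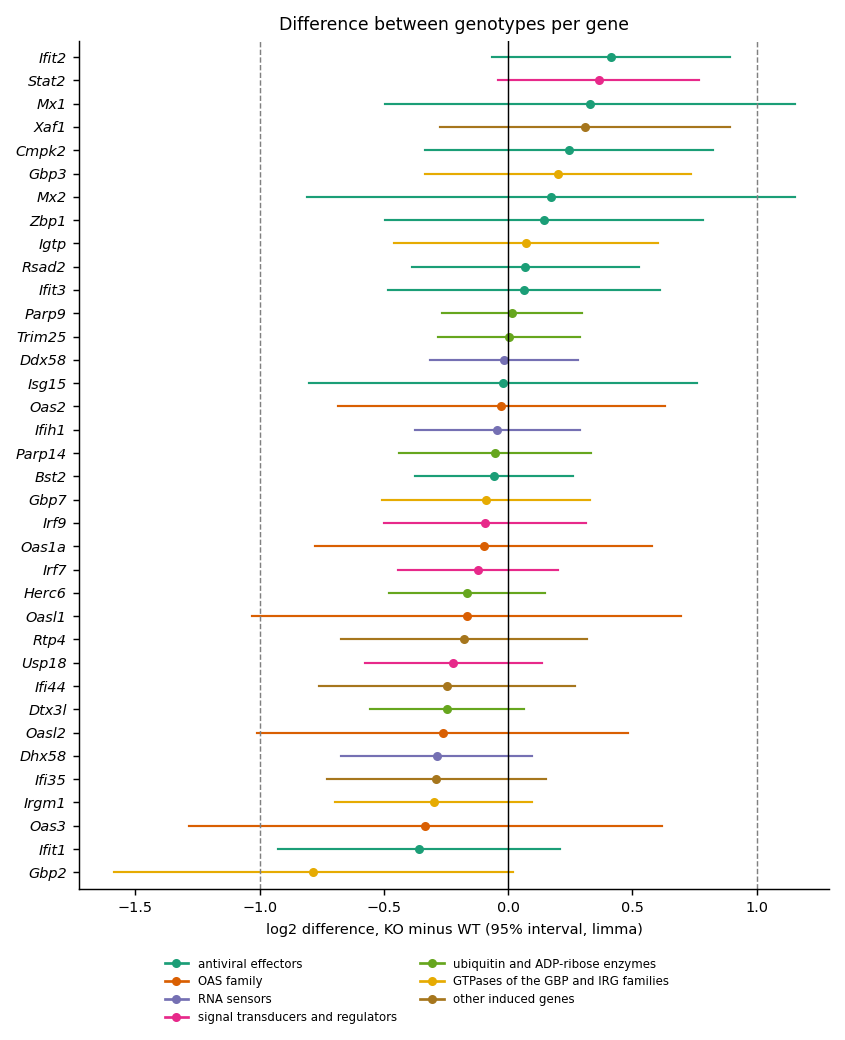
Log2 difference, KO minus WT, of each of the 36 interferon-stimulated genes (points) with its 95% interval from limma (lines, n = 3 per genotype), coloured by role and ordered by size, with dashed lines at -1 and 1. Every interval includes 0, and only those of Mx1 and Mx2 pass 1.

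**Figure D2:**
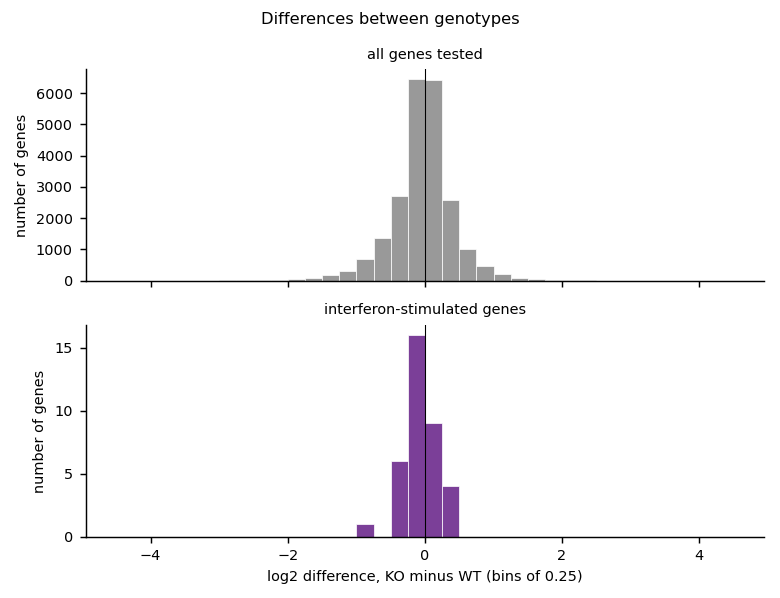
Number of genes by log2 difference, KO minus WT, in bins of 0.25, for the 22677 genes tested (top) and for the 36 interferon-stimulated genes (bottom, own vertical scale). The members lie between -0.79 and 0.41, inside the bulk of all genes.

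The antiviral effectors act on viral RNA, proteins or particles. Of the 10, 7 had a higher and 3 a lower mean in KO. Ifit1, which binds foreign RNA caps, was at 7.54, 7.66 and 8.34 in the WT tumors, here and below in the order of replicates 1 to 3, and at 7.32, 7.71 and 7.42 in the KO tumors. WT replicate 3 was the highest and the groups overlapped (log2 difference -0.36, standard error 0.25, limma's unadjusted p = 0.182). Ifit2, its neighbour in the same family, was at 7.93, 7.88 and 8.05 in WT and at 7.97, 8.72 and 8.41 in KO. Here 2 of the 3 KO tumors stood above all WT tumors, and the log2 difference was 0.41, the largest towards KO among the members (standard error 0.21, limma's unadjusted p = 0.0809). Its unadjusted p was under 0.05 by limma without KO replicate 1, also with WT replicate 2 left out as well, and with equal library medians. Its adjusted p was not under 0.05 in any of these.
Isg15 encodes a ubiquitin-like protein that is attached to many targets in the interferon response. It was at 6.74, 6.48 and 6.91 in WT and at 7.42, 6.17 and 6.48 in KO. Both the highest and the lowest of the 6 tumors were thus labelled KO, and the means differed by -0.020 (95% interval -0.80 to 0.76). Zbp1, a sensor of Z-form nucleic acid that also triggers necroptosis, was at 6.55, 6.81 and 7.52 in WT and at 7.30, 6.98 and 7.02 in KO, and the KO values lay inside the WT range. Mx1, a dynamin-like GTPase that is defective in common laboratory strains, was at 6.02, 5.25 and 6.07 in WT and at 5.58, 6.27 and 6.47 in KO (log2 difference 0.33, 95% interval -0.50 to 1.15). For Mx2, its paralog, WT replicate 2 stood alone at 5.50, against 6.87 and 6.97 in the other WT tumors and 6.95, 6.16 and 6.76 in KO.
The remaining effectors overlapped between genotypes. Their log2 differences were 0.064 for Ifit3, 0.068 for Rsad2 (viperin, which makes a chain-terminating nucleotide), 0.25 for Cmpk2 (a nucleotide kinase of the mitochondria) and -0.057 for Bst2 (tetherin, which holds budding virus at the membrane).

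The active enzymes of the OAS family make 2′-5′ oligoadenylate on binding double-stranded RNA, and this product activates RNase L. All 5 genes had a lower mean in KO, with log2 differences from -0.33 to -0.027, and all 5 overlapped. With a library left out, each of the 5 changed sign in some fit. Of their relatives outside the members, Oas1b, Oas1c and Oas1g had higher means in KO (log2 differences 0.26, 0.52 and 0.26). Oas1a was at 7.64, 7.97 and 7.48 in WT and at 8.21, 7.48 and 7.10 in KO, so that the highest and the lowest tumor were both KO. Oas3 was at 6.38, 5.32 and 5.21 in WT and at 5.05, 5.08 and 5.77 in KO. WT replicate 1 stood above the rest, and without it the log2 difference of Oas3 was 0.039 in place of -0.33. Oas2 had a log2 difference of -0.027 and the OAS-like genes Oasl1 and Oasl2 had -0.17 and -0.26.

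Among the RNA sensors the median standard deviation within genotypes was 0.11. Ddx58, which encodes RIG-I, was at 9.85, 9.90 and 10.09 in WT and at 9.99, 9.96 and 9.84 in KO, a log2 difference of -0.019 with a 95% interval of -0.32 to 0.28. Ifih1, which encodes MDA5, was at 10.33, 10.42 and 10.48 in WT and at 10.57, 10.17 and 10.35 in KO (log2 difference -0.043, 95% interval -0.38 to 0.29). A change of 2-fold on the deposited scale, in either direction, lay outside both intervals. Dhx58, which encodes the helper sensor LGP2, was at 7.53, 7.56 and 7.70 in WT and at 7.27, 7.45 and 7.21 in KO. Its KO values lay below all WT values by 0.080 (log2 difference -0.29, standard error 0.17, limma's unadjusted p = 0.122). The exact two-sided permutation test gave p = 0.1, the smallest that 3 against 3 allow.

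Of the signal transducers and regulators, Stat2, a subunit of ISGF3, was at 9.71, 9.50 and 10.02 in WT and at 10.10, 9.92 and 10.30 in KO. WT replicate 3 lay among the KO tumors, and the log2 difference was 0.36 (standard error 0.18, limma's unadjusted p = 0.0720). Stat2 reached an unadjusted p under 0.05 by limma without WT replicate 3, without KO replicate 2 and under the shift to equal medians, and an adjusted p under 0.05 in none of these. Its partner Irf9 had a log2 difference of -0.094. Irf7, the factor that drives the alpha interferon genes, was at 8.76, 8.79 and 9.03 in WT and at 8.79, 8.65 and 8.78 in KO (log2 difference -0.12, 95% interval -0.44 to 0.20). Usp18, which strips ISG15 from its targets and restrains IFNAR, was at 8.35, 8.07 and 8.11 in WT and at 7.89, 8.07 and 7.92 in KO. The groups were separated by a gap of 0.0065 only (log2 difference -0.22, limma's unadjusted p = 0.190).

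The ubiquitin and ADP-ribose enzymes had the smallest spread of all roles, with a median standard deviation within genotypes of 0.078. Herc6, the ligase that attaches ISG15 in mice, was at 8.35, 8.52 and 8.53 in WT and at 8.34, 8.25 and 8.32 in KO, lower without overlap by a gap of 0.013 (log2 difference -0.16, limma's unadjusted p = 0.262). Dtx3l, a ubiquitin ligase that works in a complex with PARP9, was at 10.02, 9.94 and 10.18 in WT and at 9.69, 9.93 and 9.79 in KO. It too was lower without overlap, by a gap of 0.012 (log2 difference -0.25, limma's unadjusted p = 0.103). Parp9 itself had a log2 difference of 0.014 (95% interval -0.27 to 0.30). Trim25, the ligase that acts on RIG-I, had a difference of 0.0024, and Parp14, an ADP-ribosyltransferase, one of -0.053.

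Among the GTPases, which attack the vacuoles of intracellular pathogens, Gbp2 was at 7.78, 7.14 and 6.85 in WT and at 5.84, 6.70 and 6.86 in KO. The groups overlapped by a single pair of tumors, WT replicate 3 and KO replicate 3. Its log2 difference of -0.79 (standard error 0.35, 95% interval -1.59 to 0.018, limma's unadjusted p = 0.0541) was the largest of the members, and its range over the 6 tumors, 1.93, the widest. It passed an unadjusted p of 0.05 without WT replicate 3 and without KO replicate 3, and an adjusted p in neither. The other GTPases had smaller differences. Irgm1 was at 9.15, 9.21 and 9.65 in WT and at 9.003, 8.93 and 9.18 in KO (log2 difference -0.30, limma's unadjusted p = 0.119), and Gbp3, Gbp7 and Igtp had log2 differences of 0.20, -0.090 and 0.070.
The 4 other induced genes overlapped between genotypes, with log2 differences of 0.31 for Xaf1 (a promoter of apoptosis), -0.25 for Ifi44, -0.29 for Ifi35 and -0.18 for Rtp4.

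**Figure D3:**
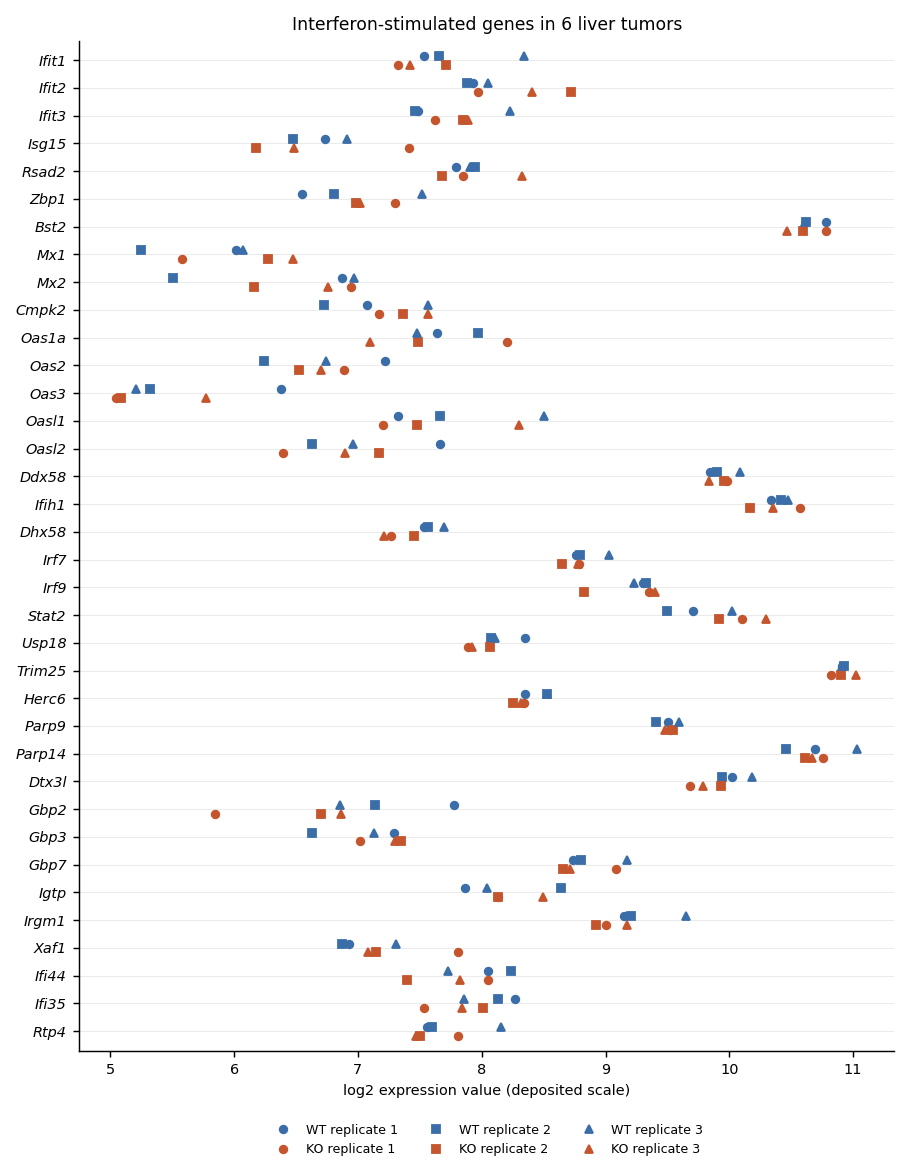
Log2 expression value (deposited scale) of the 36 interferon-stimulated genes in each of the 6 tumors, WT in blue and KO in red, with the marker shape giving the replicate. The groups are separated in Dhx58, Usp18, Herc6 and Dtx3l, by gaps of 0.0065 to 0.080, and overlap in the other 32.

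The 4 members without overlap, Dhx58, Usp18, Herc6 and Dtx3l, were all lower in KO, 11.1% of the members against 8.28% of all genes tested (4.33% lower and 3.95% higher in KO). The count rested on the scaling. When each library was shifted to the same median, 0 members were lower without overlap and 1, Ifit2, was higher, against 8.70% of all genes in either direction. With quantile normalization 3 of the 4 remained, all but Dtx3l. Leaving out a library makes separation easier for all genes (15.9% to 21.5% of them), and the count then ran from 5 without WT replicate 2 to 12 without WT replicate 3, of which 6 were higher and 6 lower. It was 10 without KO replicate 1, 8 without KO replicate 2 and 8 without KO replicate 3.

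With all 6 tumors kept, the level over all 36 members varied more among WT tumors than it differed between genotypes. The mean of the members' log2 values, each centred on the gene's mean over the 6 libraries, was 0.046, -0.11 and 0.15 for the WT tumors and -0.034, -0.082 and 0.030 for the KO tumors. The highest and the lowest tumor were both WT. The lowest was WT replicate 2, whose Top1mt value goes against its label. Apart from it, the WT tumors lay above all KO tumors. Averaged by genotype it came to 0.029 ± 0.13 for WT and -0.029 ± 0.056 for KO (SD, n = 3 each). WT replicate 3 was the highest of the 6 tumors in 16 of the 36 members and the lowest in 0, while WT replicate 2 was the lowest in 11 and the KO tumors in 9, 9 and 5.
Single members stood far from their means in both directions within a library. In KO replicate 1, Isg15 stood 0.72 above its mean and Gbp2 1.02 below it. In WT replicate 1, Gbp2 stood 0.91 above and Zbp1 0.48 below. In WT replicate 3, Oasl1 stood 0.76 above and Oas3 0.26 below, and in KO replicate 2 Ifit2 stood 0.56 above and Isg15 0.53 below. Within genotypes the median standard deviation of the members was 0.27, from 0.071 for Parp9 to 0.65 for Mx2, against 0.38 over all genes tested.

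**Figure D4:**
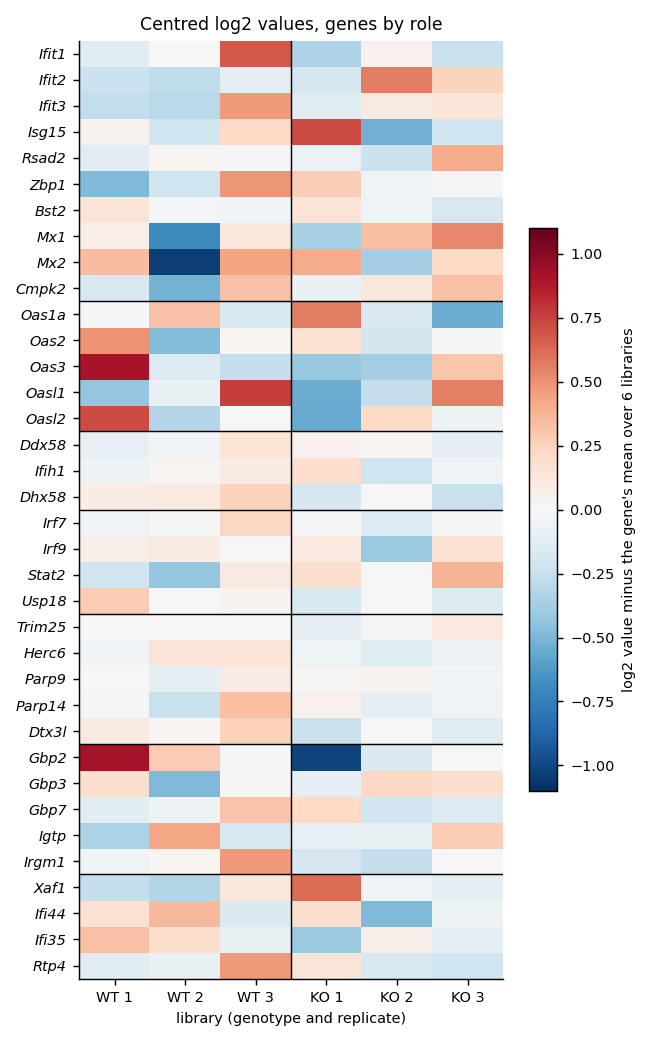
Log2 value of each interferon-stimulated gene minus its mean over the 6 libraries (colour), with genes in rows grouped by role and libraries in columns. WT replicate 3 is above the mean in 25 of 36 genes and KO replicate 2 in 11, and neighbouring genes of a role often differ in sign within a library.

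The members were also divided by the ISRE match described above. The 15 with a match had log2 differences from -0.79 to 0.36 with a median of -0.043, and 5 of them had a higher mean in KO. The 12 without one ran from -0.29 to 0.41 with a median of -0.14, and 4 had a higher mean in KO. The 9 members with no promoter entry ran from -0.29 to 0.33.

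Genes of the steps upstream of the members, and of signalling near the receptor, were followed in lists fixed by role. Of 21 interferon genes 10 were in the table and 11 were not analysed here. Ifnb1, the gene that cGAS and STING signalling switches on, lay between -2.00 and -1.97 in all 6 libraries, near the bottom of the table, and 8 of the 10 were too low to be tested. Ifng, interferon gamma, was between -0.19 and 0.032. Its libraries stood in the same order as those of Ifnb1, from WT replicate 2 at the top to KO replicate 3, so no difference between genotypes is read from it. Ifnk, interferon kappa, known from skin, was named after its values were seen, as the other interferon gene tested. It was at 4.58, 5.44 and 5.46 in WT and 6.35, 5.11 and 5.64 in KO (log2 difference 0.54, limma's unadjusted p = 0.241). Ifnk lies inside Mob3b on the opposite strand. Mob3b was at 10.32 to 10.89 in the same libraries, with its highest value, like that of Ifnk, in KO replicate 1. Exons of the 2 genes share no bases. The library kit keeps strand, but whether the counting used it is not given in the sources used here. Whether reads of Mob3b entered the Ifnk value was not tested.

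Of 11 genes of receptors and proximal signalling tested, 0 had an adjusted and 0 an unadjusted p under 0.05 by limma. They include Socs1 and Socs3, which encode neither a receptor nor a kinase. The median log2 difference was -0.042. The differences ran from -0.88 for Socs3 (limma's unadjusted p = 0.0652, the smallest of the list) to 0.45 for Ifngr1. Ifnar1 was at 10.14, 10.33 and 10.13 in WT and at 10.32, 10.07 and 10.09 in KO (95% interval of the log2 difference -0.35 to 0.27). Ifnar2 had a log2 difference of 0.0025 (95% interval -0.35 to 0.36). Tyk2 was higher in KO without overlap, at 9.32, 9.25 and 9.20 in WT and 9.44, 9.44 and 9.46 in KO (log2 difference 0.19, limma's unadjusted p = 0.152).
Of the 16 genes of nucleic acid sensing 15 were tested, 4 with a higher and 11 with a lower mean in KO, 0 with an adjusted and 0 with an unadjusted p under 0.05 by limma. Cgas, listed as Mb21d1, was at 4.92, 5.42 and 4.72 in WT and at 4.82, 5.02 and 3.20 in KO. KO replicate 3 stood below the other 5, and the log2 difference of -0.67 had a wide interval, from -1.93 to 0.59. Sting1, listed as Tmem173, was at 6.92, 6.24 and 5.32 in WT and 5.81, 6.12 and 5.99 in KO, with the KO values inside the WT range. Irf3, the factor downstream, had a log2 difference of -0.072 (95% interval -0.43 to 0.28).
Among 5 further interferon regulatory factors given here, Irf1 had a log2 difference of 0.064. Irf8, a factor of macrophages and dendritic cells, was lower in KO without overlap (log2 difference -0.21, limma's unadjusted p = 0.161).

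**Figure D5:**
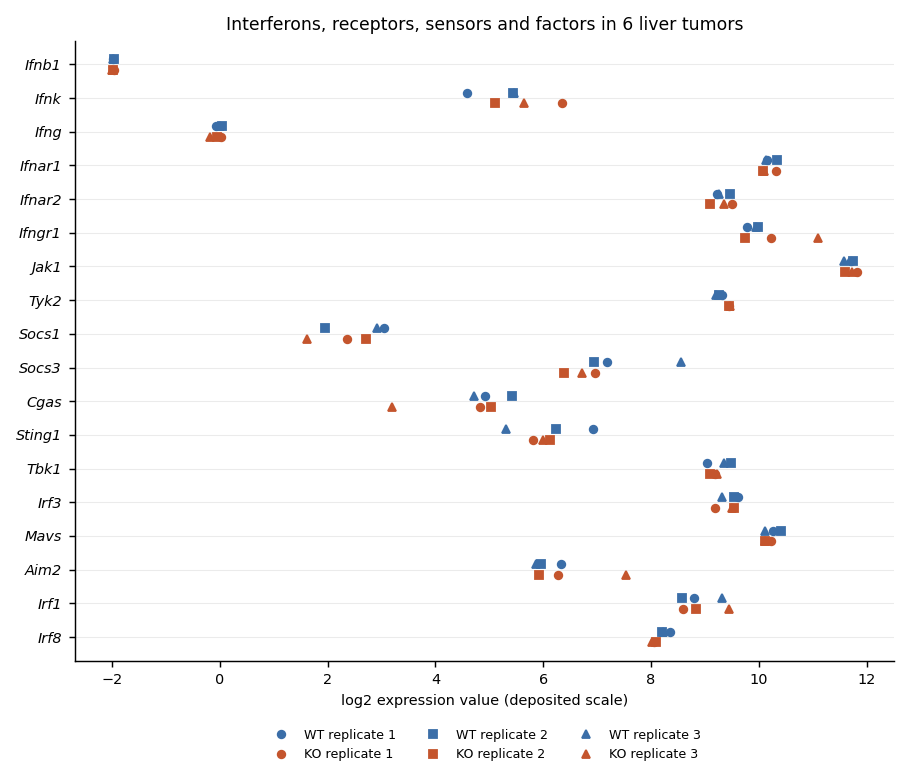
Log2 expression value (deposited scale) of 18 genes of the interferon pathway lists in each of the 6 tumors. WT is in blue and KO in red, with the marker shape giving the replicate. Ifnb1 lies at the bottom of the scale in all libraries, and Tyk2 and Irf8 are the genes shown whose groups do not overlap.

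A second list of 52 interferon-induced genes that are not members gave 49 genes tested. Of these 29 had a higher and 20 a lower mean in KO, with a median log2 difference of 0.041. By limma 0 passed an adjusted p of 0.05 and 2 an unadjusted one, where 4.34% of all genes tested did. The groups did not overlap in 2 genes higher and 1 lower in KO, against 8.28% of all genes tested. Ifi27, a mitochondrial protein of the interferon response, was at 11.11, 11.57 and 11.15 in WT and 10.75, 10.26 and 10.98 in KO, lower without overlap (log2 difference -0.61, standard error 0.22, limma's unadjusted p = 0.0232, adjusted p = 0.999). Trim30d went the other way, at 7.40, 7.45 and 7.38 in WT and 7.64, 7.86 and 8.26 in KO (log2 difference 0.51, limma's unadjusted p = 0.0324, adjusted p = 0.999). Oas1c, a relative of Oas1a, was higher in KO without overlap (log2 difference 0.52, limma's unadjusted p = 0.201).

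Marker lists of the cells that make or answer interferon were summed on the linear scale and returned to log2. The sum of 16 T and NK cell markers was 7.19 to 7.54 in WT and 7.29 to 7.69 in KO, that of 10 macrophage and monocyte markers 12.34 to 13.40 and 12.31 to 12.88, and that of 8 dendritic cell markers 8.97 to 9.23 and 8.84 to 9.20. The sum of 6 neutrophil markers was 8.42 to 9.90 in WT and 8.00 to 8.59 in KO, that of 6 B and plasma cell markers 8.28 to 9.06 and 6.999 to 8.79, and that of 6 endothelial markers 12.72 to 12.97 and 12.84 to 13.11. All these ranges overlapped, as did that of 5 bile duct markers (11.58 to 12.62 and 11.70 to 12.58), of which 2 were lower in KO without overlap. Of the endothelial markers 2 were higher without overlap, and 1 dendritic cell marker was higher and 1 macrophage marker lower. Among T and NK cell markers 1 was higher and 1 lower without overlap, and 1 hepatocyte marker was higher. By single genes, the median log2 difference was -0.88 over the neutrophil markers and -1.19 over the bile duct markers, with 2 of each lower at an unadjusted p under 0.05 by limma. At that p, 1 B and plasma cell marker and 1 macrophage marker were also lower and 1 dendritic cell and 1 endothelial marker higher. Of all genes tested, 8.28% were without overlap and 4.34% had an unadjusted p under 0.05 by limma. The adjusted p was above 0.05 for every marker. The part of these cells in the members' values was not tested.

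Some members have near copies, between which the authors' counting of uniquely mapped reads may have divided or dropped reads. By blastn on GENCODE M21 transcripts, Ifit3 and Ifit3b shared 1700 aligned bases at 97.8% identity, Oas1a and Oas1g 1861 at 97.6%, and Mx1 and Mx2 646 at 96.1%. Isg15 shared 482 at 95.2% with AC151275.1. Herc6, Gbp7 and Rtp4 shared 688, 637 and 296 bases at 100% with Gm45193, Gm43802 and Gm45338, whose exons overlap theirs on the same strand by 13.7%, 11.3% and 13.9% of the member's exon bases. The values of these members, Herc6 among the 4 without overlap, are uncertain to that extent. Exons of Parp9 and Dtx3l overlap by 458 bases on opposite strands, and exons of Igtp and Irgm2 by 162 on the same strand. Of Ifi35, 16.8% of the exon bases lie under Gm11626 on the opposite strand.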

How the data were processed

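RNA of 6 liver tumors (WT and Top1mt-KO, 3 each) was examined. The table that the authors deposited holds normalized log2 values of 30236 genes. The transform is not named in the sources used here. If it draws weakly expressed genes toward their mean, as a regularized log does, their differences are understated. The paper's methods name Trimmomatic, BWA, a genome called Mm 8, uniquely mapped reads, featureCounts and DESeq2, whereas the submitters' processing notes list STAR 2.5.1 and GRCm38. Counts were not used here, so no count model was run and depth is unknown. The 3 columns without a name were not used, and 0 further columns held per-sample values.

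The genotype comparison used limma 3.58.1 under R 4.3.3 (lmFit, eBayes with trend, Benjamini-Hochberg over 22677 genes). Groups came from the sample titles. Single values were also compared by exact permutation over 20 regroupings, with no p below 0.1. Transcripts were compared with blastn 2.17.0 (at least 95% identity over 200 bases). The paper calls the tumors of each genotype independent, but neither it nor the labels say that each came from its own mouse, so p-values measure only the spread between these samples, which may be technical.

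The members and lists were chosen with earlier results of these data known. Named in full were members without overlap, the 6 with the smallest p, the 3 with the widest range and a fixed set by role. Of the pathway lists, a fixed set and up to 3 genes per list without overlap were named, with Socs3 and Ifngr1 as the ends of their list. Trex1, in that set, was not analysed here, and some items of the lists are not reported here. Other members are given by their differences. Alternatives were no trend, quantile normalization, equal medians, other filters, a replicate block, libraries left out and an adjusted p of 0.1.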

Additional observations from a re-analysis of the deposited data

How the results depend on the processing

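In none of the 13 alternative fits did a member pass an adjusted p of 0.05 by limma (smallest 0.603), nor at an adjusted p of 0.1 in the fit reported. Over all genes, 4 passed with no filter on low values and 0 to 1 with a library left out. Members at an unadjusted p under 0.05 numbered 2 with equal medians (Ifit2 and Stat2), 1 with the replicate block (Stat2), 1 without WT replicate 2 and KO replicate 1 together (Ifit2) and 0 to 2 with a library left out, against 0. The shares over all genes tested were 4.31%, 4.02%, 5.96% and 3.79% to 5.97% in the same order, against 4.34%. The block changed no other call, and the deviations of same-numbered tumors correlated at -0.12, -0.076 and 0.052, so that they share only a number. Members without overlap numbered 4 in the fit reported (8.28% of all genes) and 1 with equal medians (8.70% of all genes). Without WT replicate 2 and KO replicate 1 they numbered 15 (33.6% of all genes then), 4 higher and 11 lower in KO. With a library left out they numbered 5 to 12 (15.9% to 21.5% of all genes). The median log2 difference of the members was -0.16 without those 2 libraries, against -0.032 over all genes tested. With a library left out it was -0.13 to -0.00090, against -0.018 to -0.0045 over all genes tested.

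Some differences changed sign. With quantile normalization Isg15 was 0.0033, Trim25 -0.025, Parp9 -0.0020 and Ifnar2 -0.0086. With equal medians Isg15 was 0.035, Oas2 0.027, Ddx58 0.036, Ifih1 0.011, Parp14 0.0010 and Ifnar1 0.013. Without WT replicate 2 and KO replicate 1 together Zbp1 was -0.031, Mx2 -0.46, Parp9 -0.037, Xaf1 -0.0065, Ifnar2 -0.015 and Irf3 0.063. With a library left out 20 of the 36 members reversed in some fit: Ifit3 (-0.068 to 0.31), Isg15 (-0.38 to 0.24), Rsad2 (-0.12 to 0.20), Zbp1 (-0.060 to 0.42), Bst2 (-0.14 to 0.017), Mx2 (-0.30 to 0.43), Oas1a (-0.40 to 0.15), Oas2 (-0.27 to 0.21), Oas3 (-0.57 to 0.039), Oasl1 (-0.49 to 0.17), Oasl2 (-0.49 to 0.027), Ddx58 (-0.067 to 0.053), Ifih1 (-0.15 to 0.055), Irf9 (-0.20 to 0.088), Trim25 (-0.052 to 0.050), Parp9 (-0.033 to 0.061), Parp14 (-0.19 to 0.099), Gbp7 (-0.22 to 0.043), Igtp (-0.087 to 0.30) and Rtp4 (-0.29 to 0.014). Of the pathway genes Ifnar1 (-0.12 to 0.024), Ifnar2 (-0.090 to 0.11), Irf1 (-0.18 to 0.28), Irf3 (-0.16 to 0.037) and Sting1 (-0.61 to 0.19) did so. The causes were not tested. With 3 tumors a genotype, unknown depth and an unnamed transform, differences that lie inside the intervals given are not excluded.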
